A study of Zea mays with 9 samples.

Results

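Maize seeds germinating with NaCl were set against CK seeds, all labelled with the stage seed germination, gene by gene, in 3 NaCl and 3 CK libraries of seed RNA. The genes described reached an FPKM of 1 in 3 or more of these 6 libraries, and they numbered 21657 of the 39301 measured. FPKM counts RNA fragments for each kilobase of a gene and is scaled to the fragments of its library, so levels may be compared between genes. Between libraries they compare only as shares of each library, and the effect of other scalings is given at the end. The NaCl group received NaCl, and CK, which the labels do not explain, is the usual abbreviation for an untreated control. The labels state neither cultivar, salt dose, length of treatment nor the number of seeds in a library. A further group of 3 libraries, NaCl+MT, brings the series to 9 libraries and is not compared with another group here. The libraries are labelled biological replicates, with no word on whether each came from its own batch of seeds, so the p-values measure the spread between these libraries.

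A germinating maize seed takes up water, breaks down the starch, protein and oil stored in its endosperm and scutellum, and then grows a root and a shoot by expanding existing cells before new ones are made. Salt lowers the water potential around the seed and brings in sodium and chloride, so that water uptake, reserve use and growth are slowed. Abscisic acid holds germination back and gibberellin drives it, while ethylene, jasmonate, auxin and cytokinin act on growth and defence. Plants in salt are known to use ion transporters, compatible solutes, chaperones and enzymes that remove reactive oxygen.

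The NaCl and CK libraries lay apart on the first principal component of log2(FPKM + 1), which held 69.3% of the variance. NaCl replicates 1 to 3 were at 78.4, 35.8 and 45.6, and CK replicates 1 to 3 at -57.0, -45.6 and -57.2. The second component, with 15.0% of the variance, ran mostly among the NaCl libraries, at 42.4, -18.0 and -40.4 for NaCl replicates 1 to 3, against -1.44, 5.61 and 11.7 for CK replicates 1 to 3. Depth could be had only relative to CK replicate 1. By this measure the NaCl libraries stood at 1.16, 1.25 and 0.538, against 1, 1.82 and 1.28 for the CK libraries, in replicate order. The shallowest library, NaCl replicate 3, listed 12558 genes at 0, against 10257 and 10618 in the other NaCl libraries and 9986 to 10782 in CK libraries. The absolute number of reads is unknown, so no counting error is attached to a level.

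**Figure D1:**
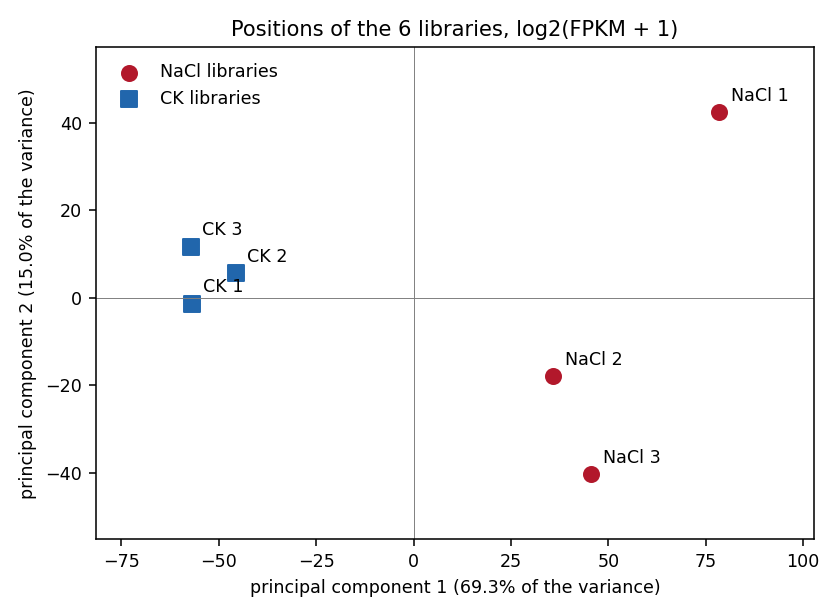
Positions of the 3 NaCl libraries (circles) and the 3 CK libraries (squares) on the first 2 principal components of log2(FPKM + 1) over the tested genes, in arbitrary units with the share of variance on each axis. The groups separate along the first axis, and NaCl replicate 1, at 78.4 and 42.4, lies away from the other NaCl libraries.

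Of the 21657 genes, 4123 (19.0%) differed between NaCl and CK at an adjusted p under 0.05 (limma, Benjamini-Hochberg over all tested genes, 2-sided), and these are said below to have risen or fallen. The genes that rose numbered 2183 (10.1%) and those that fell 1940 (8.96%). Their median log2 fold change, on the log2(FPKM + 1) scale, was 1.01 for those that rose and -1.15 for those that fell, against 0.04 over all tested genes. Changes of at least 1 on this scale were found in 1110 genes that rose and 1189 that fell, and changes of at least 3 in 49 and 88. The values of the 3 NaCl libraries lay wholly above or wholly below those of the 3 CK libraries in 8837 genes (40.8%). They lay above in 4975 genes and below in 3862. In the whole of each library, the genes that rose held 19.8, 14.06 and 13.95% of the FPKM sum in the NaCl libraries, against 4.87, 5.44 and 4.74% in the CK libraries, each in replicate order. The genes that fell held 3.66, 5.0 and 5.37% in NaCl libraries and 13.4, 14.7 and 14.8% in CK libraries. The count of calls fell to 2212, 2454 and 2354 when CK replicate 1, 2 or 3 was left out, and 1870 genes were called whichever single library was left out, 919 of them higher and 951 lower. Of the genes that rose, 233 passed the filter only through NaCl, with no CK library reaching 1, and of those that fell, 437 passed only through CK. Such a gene is in the counts only because it was high in 1 group, so its call adds nothing to them as support. Among those named below they are c1, c2, ARGOS8, PYL11, HAK24, GRMZM2G014705 and GRMZM2G075459 for NaCl, and for CK cyc1, cyc3, kin1, kin2, krp13, TUB8, Profilin, prf1, nip2b, CSLD1, mn1, PER70, lox10, R-S, EDS, glu2, yab14, YAB5, YAB6, bHLH173, MYBR41, gln1, LOL3 and GRMZM2G496319. Each gene named below as having risen or fallen is one of these 1870 unless it is said otherwise.

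The list counts below should be read against these shares of 10.1% higher and 8.96% lower. Lists were made from gene names, which 1957 of the tested genes have, and of these named genes 446 (22.8%) were called, 205 higher and 241 lower. Falls were thus a larger share of the named genes than of all tested genes, and list counts of falls should be read against both. The median log2 fold change of a list stands beside 0.04 for all tested genes. In bulk RNA such as this, fewer cells of a type and less RNA in each cell cannot be told apart.

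**Figure D2:**
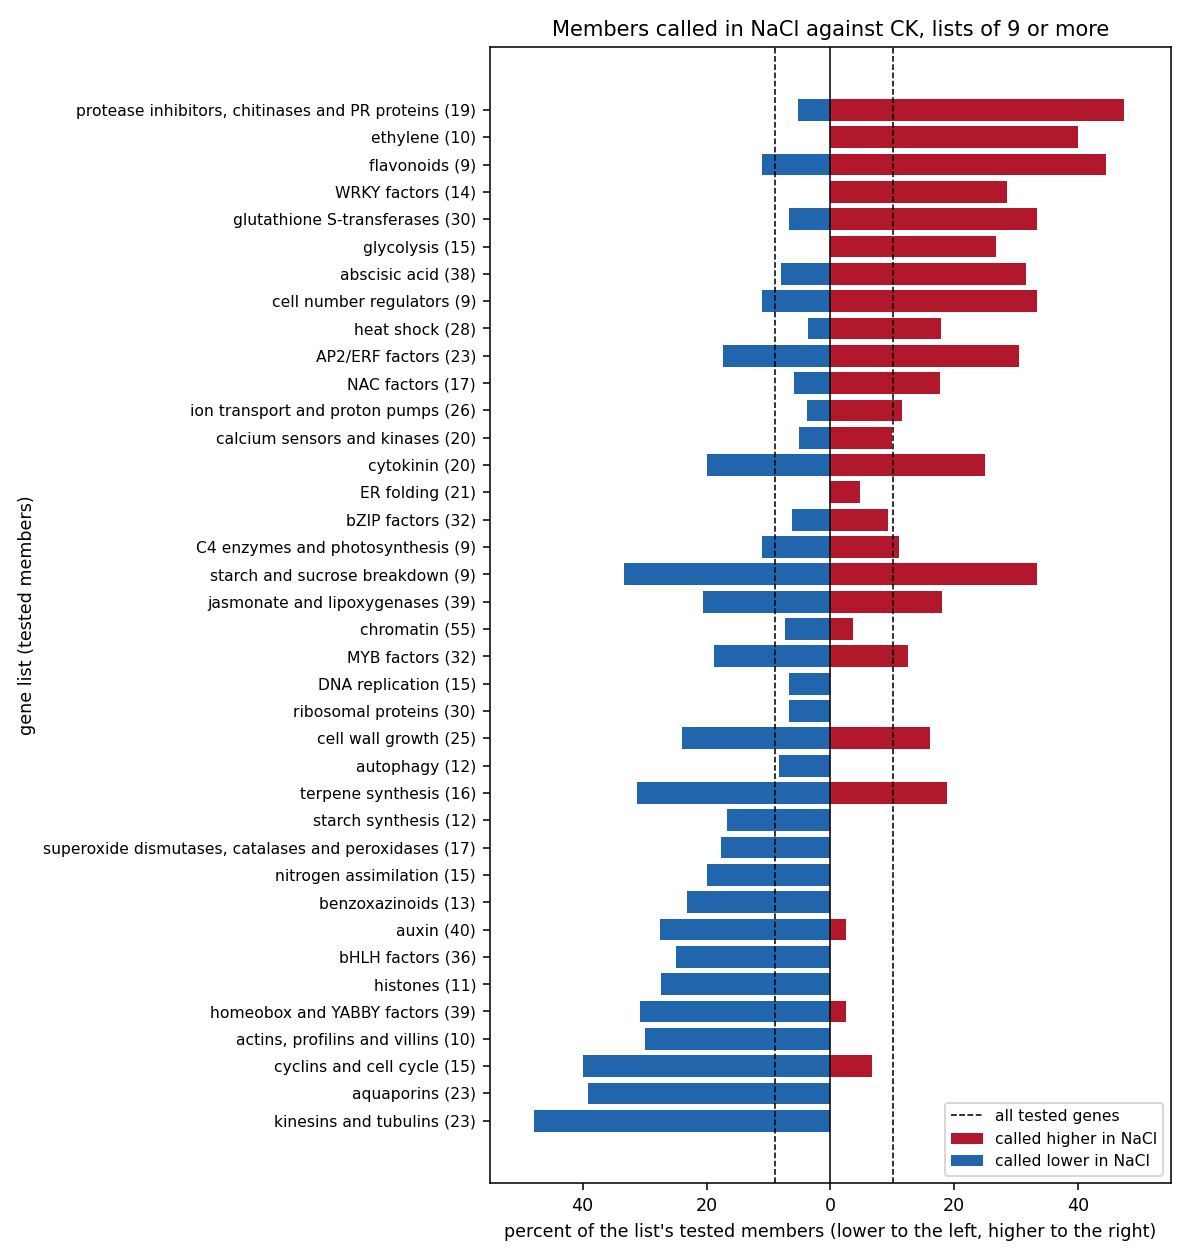
Share of the tested members of each gene list of 9 or more that were higher (red, to the right) or lower (blue, to the left) in NaCl than in CK at an adjusted p under 0.05, with the number tested in parentheses. The dashed lines mark the 10.1% higher and 8.96% lower among all tested genes. Kinesins and tubulins, aquaporins and cell cycle genes reach farthest to the left, and protease inhibitors, chitinases and PR proteins farthest to the right.

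Among 15 cyclins and other genes of the cell cycle, 6 fell in salt and 1 rose, and the 6 falls held whichever library was left out. Of these 6, cyc1 and cyc3 passed the filter only through CK. The median log2 fold change of the list was -0.31. The cyclin cyc1 (GRMZM2G034647) had an FPKM of 0.077, 0.201 and 0.067 in NaCl libraries, against 13.2, 6.80 and 8.97 in CK libraries. It was close to 0 in every NaCl library, with a log2 fold change of -3.21 (SE 0.23, adjusted p = 0.000138). Another cyclin, cyc3 (GRMZM2G073671), was at 0, 0.322 and 0.075 in NaCl against 12.3, 6.06 and 7.73 in CK. The spindle checkpoint gene mad2 (GRMZM2G047143) was at 1.02, 3.09 and 1.15 in NaCl libraries and 20.2, 13.9 and 14.3 in CK libraries. The groups did not overlap in any of these 3 genes. The kinase wee1 (GRMZM5G878541), which holds cells before mitosis, fell too, by 1.35 on the log2 scale, as did cyclin8 and cyclin9. Not every member moved. The cyclin-dependent kinase gene cdc2 (GRMZM2G008327) had 23.2, 24.3 and 24.2 in NaCl against 28.4, 21.8 and 22.2 in CK (log2 fold change -0.01, adjusted p = 0.98). The D-type cyclin cycD2 (GRMZM2G075117), of the class that acts at the start of the cycle, rose to 135, 87.0 and 74.1 in NaCl libraries against 52.5, 43.3 and 46.1 in CK libraries, but its adjusted p of 0.0199 became 0.0541 to 0.0722 when a CK library was left out.

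Of 23 kinesins and tubulins, 11 fell and none rose, 7 of them whichever library was left out, and the list's median log2 fold change was -0.64. Among these 7, kin1, kin2, krp13 and TUB8 passed the filter only through CK. The kinesin kin1 (GRMZM2G158394) had 0.719, 0.807 and 0.532 in NaCl libraries and 24.1, 32.5 and 14.1 in CK libraries (log2 fold change -3.80, SE 0.28, adjusted p = 0.00014). For krp13 (GRMZM2G034828), a kinesin as well, the values were 0.221, 0.505 and 0.134 in NaCl and 10.7, 6.96 and 5.77 in CK. All 3 NaCl libraries were low for both. The tubulin TUB8 (GRMZM2G472945) was at 0.014, 0.276 and 0.215 in NaCl, against 4.01, 2.78 and 2.65 in CK. More abundant tubulins such as tua4 (GRMZM2G152466), at 124, 159 and 115 in NaCl and 200.1, 165 and 226 in CK, did not pass the test (adjusted p = 0.0894). Among 10 actins, profilins and villins, 3 fell, whichever library was left out, and none rose. Of these 3, Profilin and prf1 (GRMZM2G074361) passed the filter only through CK. Profilin (GRMZM2G140455), named for the protein that binds actin monomers, had 0.162, 0.899 and 0.349 in NaCl and 15.9, 11.9 and 27.1 in CK, a log2 fold change of -3.67 (SE 0.31, adjusted p = 0.000227).

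Histone genes, whose products pack newly made DNA, fell in 3 of 11 cases. All 11 had a lower mean in NaCl than in CK. Of these, 9 lay below CK with no overlap, against 3862 of all 21657 tested genes. The histone H4 gene H4C13 (GRMZM2G149178) was at 13.5, 92.3 and 52.9 in NaCl and 189, 145 and 161 in CK. NaCl replicate 1 was the lowest by far, and the adjusted p of 0.0455 rose to 0.144, 0.0896 or 0.108 without CK replicate 1, 2 or 3. The other called histones, his2b2 and hon101, lost their calls in the same way, so that no histone was called without any 1 of the CK libraries, while 5 were without NaCl replicate 1 and 8 without NaCl replicate 2. Another H4 copy carries the same name, and reads of near-identical histone genes may have been shared between them. Of 15 DNA replication genes, 1 fell, and of 30 ribosomal protein genes, 2 fell, both below the share over all genes. Their median log2 fold changes were -0.40 and -0.36, and -0.16 and -0.22 without NaCl replicate 1. With no overlap, 6 of the 15 and 5 of the 30 lay below CK and none above, beside the same 3862 of 21657. Chromatin genes, 55 in all, gave 2 rises and 4 falls. Whichever library was left out, 1 of these chromatin rises held and none of the falls in the 3 lists did. HMG5 (GRMZM2G060253), named for the high mobility group proteins and outside the lists, had 0.486, 1.80 and 1.08 in NaCl against 31.3, 20.1 and 21.0 in CK (log2 fold change -3.59, SE 0.27, adjusted p = 0.000155).

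Aquaporins, which pass water and small solutes through the plasma membrane and the tonoplast, gave 9 falls and no rise among 23 members, 7 of the falls whichever library was left out, and a median log2 fold change of -0.66, which was -0.43 without CK replicate 3. The tonoplast gene tip2b (GRMZM2G056908) had 1.28, 2.31 and 0.51 in NaCl libraries and 16.3, 18.7 and 42.3 in CK libraries (log2 fold change -3.44, SE 0.39, adjusted p = 0.000952). Low-level members fell as well, such as nip2b (GRMZM2G137108) at 0.081, 0.301 and 0 in NaCl against 2.23, 2.29 and 4.35 in CK. The 7 aquaporins with the highest CK means did not pass. The plasma membrane gene pip2f (GRMZM2G047368) had 730, 812 and 377 in NaCl and 299, 429 and 496 in CK, with overlap between the groups (adjusted p = 0.264). The tonoplast gene tip2a (GRMZM2G027098) had 539, 667 and 381 in NaCl and 546, 853 and 1146 in CK (adjusted p = 0.23).

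Cell wall genes moved both ways, with 4 rises and 6 falls among 25 and a median log2 fold change of -0.13, which was -0.20 without CK replicate 2 and -0.06 without CK replicate 3. Of these calls 2 rises and 4 falls held whichever library was left out. Of the alpha-expansins named here, proteins that loosen the wall, 3 rose and 1 fell. Of those that rose, expA4 (GRMZM2G445169) was at 101, 169.9 and 114 in NaCl and 33.0, 39.2 and 42.9 in CK, and expa2 (GRMZM2G105844) at 164, 281 and 380.5 in NaCl and 86.9, 84.0 and 80.2 in CK. Their log2 fold changes were 1.69 (SE 0.22, adjusted p = 0.0018) and 1.62 (SE 0.29, adjusted p = 0.00721). The rise of expa1 (GRMZM2G339122), at 120.3, 153 and 106 in NaCl and 46.4, 51.3 and 96.5 in CK (adjusted p = 0.0418), was lost without CK replicate 1 or 2 or without NaCl replicate 2 or 3, with an adjusted p of up to 0.146. EXPA5 (GRMZM2G361064) did not pass (adjusted p = 0.156). The alpha-expansin that fell was expA3 (GRMZM2G074585), at 0.607, 3.46 and 0.375 in NaCl and 6.93, 6.27 and 12.6 in CK (log2 fold change -2.11, SE 0.44, adjusted p = 0.014), with an adjusted p of 0.0501 without CK replicate 3. The beta-expansin expB4 (GRMZM2G154178) fell to 1.87, 2.04 and 0.571 in NaCl against 17.9, 15.6 and 33.7 in CK (log2 fold change -3.21, SE 0.34, adjusted p = 0.000696). The cellulose synthase-like gene CSLD1 (GRMZM2G015886) was at 0.014, 0.088 and 0.015 in NaCl and 3.78, 2.74 and 2.95 in CK. Xyloglucan endotransglycosylase xet1 (GRMZM2G026980), which cuts and rejoins wall xyloglucan, had 25.0, 86.6 and 38.8 in NaCl and 152, 378 and 281 in CK. Among 9 cell number regulators, a family named after a gene that limits organ size in maize, 3 rose and 1 fell, and 2 of the rises and not the fall held whichever library was left out. CNR2 (GRMZM2G151230) was at 263, 204 and 132 in NaCl libraries and 25.6, 26.6 and 18.5 in CK libraries, every NaCl library far above every CK library (log2 fold change 2.99, SE 0.27, adjusted p = 0.000308).

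**Figure D3:**
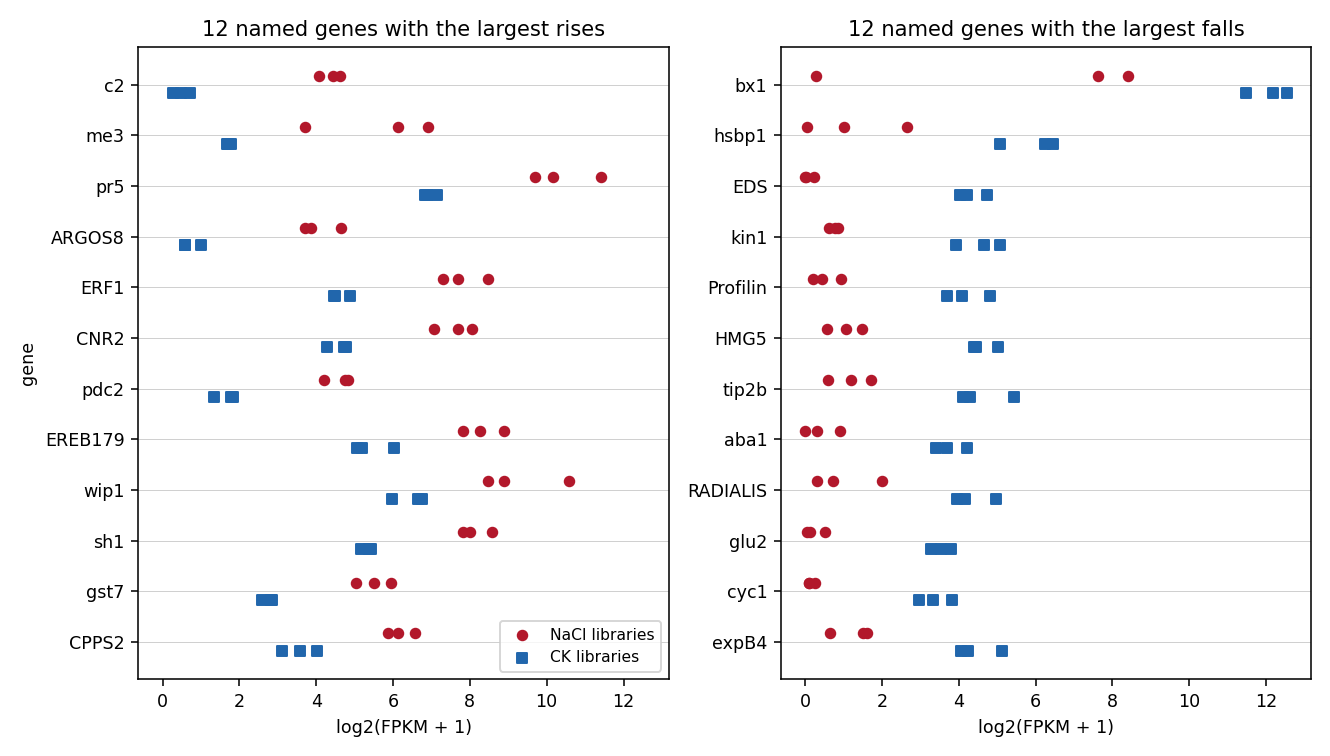
Values of log2(FPKM + 1) in the 3 NaCl libraries (circles, upper row of each gene) and the 3 CK libraries (squares, lower row) for the 12 named genes with the largest rises and the 12 with the largest falls that passed the test with no overlap between the groups. The NaCl points of bx1 spread far more widely than those of kin1 or cyc1, with NaCl replicate 1 at an FPKM of 0.211 and the other 2 libraries at 195 and 339.

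Among 9 genes of starch and sucrose breakdown 3 rose and 3 fell. Sucrose synthase splits sucrose reversibly and invertase splits it irreversibly. The sucrose synthase sh1 (GRMZM2G089713) had 378, 257 and 225 in NaCl libraries and 41.9, 35.2 and 40.6 in CK libraries (log2 fold change 2.81, SE 0.22, adjusted p = 0.000181). All 3 NaCl libraries lay far above every CK library. The vacuolar invertase ivr2 (GRMZM2G089836) had 9.92, 12.4 and 3.54 in NaCl and 39.4, 36.5 and 67.7 in CK (log2 fold change -2.43, SE 0.40, adjusted p = 0.0053). The cell wall invertase mn1 (GRMZM2G119689) was almost absent in NaCl, at 0.06, 0.092 and 0.064, against 2.496, 1.63 and 1.00 in CK, whereas incw1 (GRMZM2G139300), a cell wall invertase as well, rose to 116, 109 and 119.7 in NaCl against 67.8, 64.5 and 54.2 in CK. The amylase gene amy5 (GRMZM2G058310), of starch breakdown, fell to 14.4, 14.4 and 22.6 in NaCl against 36.9, 49.3 and 34.7 in CK (log2 fold change -1.20, adjusted p = 0.00767). Of 12 starch synthesis genes, 2 fell and none rose, and neither fall was called without any 1 of the CK libraries or without NaCl replicate 1 or 2.

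Among 15 glycolysis genes 4 rose and none fell, with a median log2 fold change of 0.20, and among 7 fermentation genes 2 rose and 1 fell. Of the glycolysis rises, 2 held whichever library was left out. Cytosolic glyceraldehyde-3-phosphate dehydrogenase gpc4 (GRMZM2G176307) was at 964, 1344 and 938 in NaCl and 332, 252 and 335 in CK, a log2 fold change of 1.81 (SE 0.26, adjusted p = 0.00295). The glucose-6-phosphate isomerase name gpi belongs to 2 IDs of 1 RefSeq gene, and both rose, GRMZM6G477257 with 196, 116 and 134 in NaCl and 10.9, 32.2 and 40.3 in CK. Reads may have been split between them, and the call of the other ID, GRMZM2G065083, was lost without CK replicate 3 (adjusted p = 0.0543). Pyruvate decarboxylase pdc2 (GRMZM2G038821) had 27.2, 25.8 and 17.6 in NaCl against 2.44, 2.59 and 1.53 in CK, and adh1 (GRMZM2G442658), alcohol dehydrogenase of the same pathway, had 257, 216 and 239.7 in NaCl against 62.0, 73.8 and 67.5 in CK. The SD on the log2 scale over NaCl libraries was 0.33 for pdc2 and 0.13 for adh1, against a median of 0.27 over all genes that rose. The second alcohol dehydrogenase, adh2 (GRMZM2G098346), went the other way, with 12.8, 41.2 and 15.2 in NaCl and 70.1, 166 and 127 in CK (log2 fold change -2.44, SE 0.45, adjusted p = 0.00812). The more abundant pdc3 (GRMZM2G087186) had 98.4, 163 and 167 in NaCl and 131, 155 and 145 in CK, with overlap (adjusted p = 0.917). The malic enzyme gene me3 (GRMZM2G085019) rose to 12.02, 119 and 68.7 in NaCl against 2.43, 2.21 and 2.26 in CK (log2 fold change 3.86, SE 0.68, adjusted p = 0.0069), with NaCl replicate 1 the lowest of the salt libraries. In the glyoxylate cycle, which turns seed oil into sugar, icl1 (GRMZM2G056369) was among the highest genes of both groups, at 1674, 2205 and 2370 in NaCl and 1623, 2582 and 2117 in CK. The groups overlapped fully for it (log2 fold change -0.01, adjusted p = 0.992), and none of 3 lipid breakdown genes was called.

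Protease inhibitors, chitinases and pathogenesis-related (PR) proteins rose most as a list, with 9 rises and 1 fall among 19 and a median log2 fold change of 1.60. The median was 0.94 without NaCl replicate 1, which lay apart above the other NaCl libraries in 6 of the 19. Of the rises, 7 held whichever library was left out. The PR-5 gene pr5 (GRMZM2G402631), of the thaumatin-like family, had 2735, 1151 and 826 in NaCl libraries and 113, 141 and 118 in CK libraries (log2 fold change 3.47, SE 0.41, adjusted p = 0.00119). The wound-induced protease inhibitor wip1 (GRMZM2G156632) had 1529, 474 and 353 in NaCl and 99.4, 107 and 61.5 in CK. NaCl replicate 1 was the highest in both. Of the cystatins, inhibitors of cysteine proteases, some were more even, with cc6 (GRMZM2G401328) at 854, 917 and 744 in NaCl and 243, 209.6 and 161 in CK, and cc10 (GRMZM2G030717) at 864, 808 and 688 in NaCl and 202, 246 and 129.9 in CK. The cystatin cc8 (GRMZM2G401374) was not, at 58.9, 25.3 and 22.2 in NaCl and 8.85, 5.80 and 2.94 in CK, and cpi2 (GRMZM2G012160), at 3705, 1761 and 2280 in NaCl and 1462, 1422 and 1132 in CK, did not pass (adjusted p = 0.151). For cc6 the log2 fold change was 2.04 (SE 0.24, adjusted p = 0.00109). The chitinase chiA (GRMZM2G051943), one of the highest genes of every library, had 11232, 4638 and 4192 in NaCl and 2009, 2023 and 1582 in CK, without overlap but short of the threshold (log2 fold change 1.70, adjusted p = 0.0503). Of 7 proteases 1 fell and none rose, with a median log2 fold change of 0.02 that ran from -0.12 to 0.11 with 1 library left out. The one called, the cysteine protease ccp2 (GRMZM2G038636), fell to 46.5, 84.7 and 108 in NaCl against 285, 362 and 306 in CK (log2 fold change -2.05, SE 0.30, adjusted p = 0.00305).

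Of 28 heat shock genes 5 rose and 1 fell, with a median log2 fold change of 0.38, and 3 of the rises held whichever library was left out. HSP90-1 (GRMZM2G024668) had 27.3, 23.0 and 26.2 in NaCl and 6.74, 8.14 and 8.06 in CK, and the small heat shock gene hsp18c (GRMZM2G034157) had 10.1, 9.60 and 9.30 in NaCl and 3.32, 2.91 and 2.45 in CK. Both had narrow NaCl values, and their log2 fold changes were 1.62 (SE 0.15, adjusted p = 0.000369) and 1.46 (SE 0.16, adjusted p = 0.00074). The fall was in hsbp1 (GRMZM2G085924), whose product binds heat shock factors, with 5.29, 1.00 and 0.041 in NaCl against 32.4, 86.4 and 75.0 in CK (log2 fold change -4.68, SE 0.62, adjusted p = 0.0019). Glutathione S-transferases, which join glutathione to toxic compounds, gave 10 rises and 2 falls among 30, with a median log2 fold change of 0.42, which was 0.63 without NaCl replicate 3. Only 3 of those rises held whichever library was left out, namely gst7, gst8 and gst20, and the number of rises was 3 without CK replicate 1 or CK replicate 3. The largest was gst7 (GRMZM2G028556), at 31.6, 44.2 and 61.0 in NaCl libraries and 6.11, 5.07 and 6.17 in CK libraries (log2 fold change 2.74, SE 0.23, adjusted p = 0.000241). Superoxide dismutases, catalases and peroxidases gave 3 falls and no rise among 17, with 1 fall left without any 1 of the CK libraries. The peroxidase PER70 (GRMZM2G025441) fell to 0.785, 0.69 and 0.268 in NaCl against 9.37, 8.70 and 25.6 in CK (log2 fold change -3.15, SE 0.37, adjusted p = 0.00113).

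Among 26 ion transporters and proton pumps, 3 rose and 1 fell (median log2 fold change 0.11, and 0.04 without NaCl replicate 1 or 0.17 without NaCl replicate 2), a share of rises close to that over all genes, and 1 rise held whichever library was left out. The potassium transporter HAK24 (GRMZM2G120163) was at 2.32, 1.70 and 2.47 in NaCl and 0.682, 0.69 and 0.441 in CK (log2 fold change 0.98, SE 0.17, adjusted p = 0.00677). The sodium/proton antiporter NHX3 (GRMZM2G063492), of the vacuolar type, had 11.002, 12.8 and 12.8 in NaCl and 10.8, 11.7 and 10.3 in CK, with overlap (adjusted p = 0.513). Among 8 genes of compatible solutes 1 rose and 2 fell, and 1 of the falls and not the rise held whichever library was left out. PEAMT (GRMZM2G122296), an enzyme on the way to choline and glycine betaine, had 18.3, 10.2 and 30.03 in NaCl and 55.1, 85.3 and 62.6 in CK (log2 fold change -1.84, SE 0.35, adjusted p = 0.00879).

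Abscisic acid genes, 38 in all, gave 12 rises and 3 falls with a median log2 fold change of 0.21, which was 0.10 without CK replicate 1, and 6 of the rises held whichever library was left out. Of the risen members, 7 were PP2C phosphatases, a family that includes the co-receptors of the hormone. PP2C16 (GRMZM2G082487) had 18.0, 19.9 and 15.2 in NaCl libraries and 4.35, 5.85 and 5.32 in CK libraries (log2 fold change 1.60, SE 0.17, adjusted p = 0.000699). The receptor gene PYL11 (GRMZM2G133613) had 4.39, 2.97 and 2.40 in NaCl and 0.503, 0.656 and 0.368 in CK. Neither gene overlapped between the groups, and a different phosphatase, PP2C19 (GRMZM2G069713), fell to 22.2, 23.2 and 22.9 in NaCl against 41.7, 44.6 and 43.5 in CK. A different receptor gene, PYL3 (GRMZM2G154987), fell too. Its call was lost without CK replicate 1, 2 or 3 (adjusted p = 0.061, 0.0727 and 0.074). The transcription factor gene vp1 (GRMZM2G133398), which acts in abscisic acid response in the embryo, was at 1.504, 3.10 and 3.75 in NaCl and 1.40, 2.43 and 1.56 in CK (adjusted p = 0.322). None of 5 gibberellin genes was called.

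Ethylene genes gave 4 rises and no fall among 10, with a median log2 fold change of 0.52, and 3 of the rises held whichever library was left out. ARGOS8 (GRMZM2G354338), a negative regulator of the ethylene response in maize, was at 23.9, 12.1 and 13.6 in NaCl libraries, against 0.997, 0.494 and 0.507 in CK libraries (log2 fold change 3.35, SE 0.26, adjusted p = 0.000181). The synthesis gene acs7 (GRMZM5G894619) had 6.95, 6.20 and 7.07 in NaCl and 2.19, 2.39 and 3.25 in CK. Of 23 AP2/ERF factors, the family that holds the ethylene response factors, 7 rose and 4 fell, of which 5 rises and 1 fall held likewise. ERF1 (GRMZM2G053503) had 354, 156 and 206 in NaCl and 21.2, 28.6 and 21.6 in CK, and EREB179 (GRMZM2G129674) had 476, 226 and 307 in NaCl and 35.6, 63.6 and 32.2 in CK. Their log2 fold changes were 3.20 (SE 0.29, adjusted p = 0.000349) and 2.91 (SE 0.33, adjusted p = 0.000987), with NaCl replicate 1 the highest in both.

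Jasmonate genes were split, with 7 rises and 8 falls among 39 and a median log2 fold change of -0.07. The median was 0.09 without NaCl replicate 2 and -0.01 without CK replicate 2, and 4 of the rises and 5 of the falls held whichever library was left out. Lipoxygenases, which oxidise the fatty acids that jasmonate and related compounds are made from, were among both, with lox1, lox6, lox10 and lox11 falling and lox4 and lox9 rising. The calls of lox4 and lox9 were lost when any 1 of the CK libraries was left out, with adjusted p-values of up to 0.099 and 0.133. The gene lox10 (GRMZM2G015419), of leaf volatile synthesis, had 0.184, 0.236 and 0.209 in NaCl and 12.4, 13.7 and 5.08 in CK (log2 fold change -3.13, SE 0.32, adjusted p = 0.000541). Here the NaCl values were closely grouped, all of them near 0. In lox6 (GRMZM2G040095) the values were 4.04, 5.35 and 4.07 in NaCl and 14.3, 18.4 and 16.7 in CK. Among the rises were TIFY2 (GRMZM5G838098), of the family of the jasmonate repressors, at 27.9, 15.7 and 18.7 in NaCl and 6.43, 6.26 and 8.44 in CK, and opr1 (GRMZM2G106303), a 12-oxophytodienoate reductase gene, at 10.7, 21.99 and 19.6 in NaCl and 4.34, 4.31 and 4.46 in CK.

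Auxin genes gave 11 falls and 1 rise among 40, with a median log2 fold change of -0.39, and 5 of the falls held whichever library was left out. The efflux carrier PIN1a (GRMZM2G098643) had 6.03, 7.04 and 5.35 in NaCl libraries and 18.5, 19.1 and 21.1 in CK libraries (log2 fold change -1.53, SE 0.15, adjusted p = 0.000518). AUX22 (GRMZM2G130953), of the Aux/IAA repressors, had 2.89, 4.45 and 2.98 in NaCl and 10.996, 11.2 and 9.91 in CK. In both genes every NaCl library was below every CK library. Cytokinin genes gave 5 rises and 4 falls among 20, of which 3 rises and all 4 falls held likewise. The cytokinin oxidase cko (GRMZM2G146644), which breaks the hormone down, was at 10.9, 5.65 and 5.83 in NaCl and 1.32, 1.45 and 1.15 in CK (log2 fold change 1.82, SE 0.24, adjusted p = 0.0019). The response regulator RR6 (GRMZM2G129954) was at 7.88, 11.6 and 9.48 in NaCl and 32.0, 31.4 and 39.4 in CK (log2 fold change -1.74, SE 0.18, adjusted p = 0.000584).

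Secondary metabolism changed gene by gene. In the flavonoid list, 4 rose and 1 fell of 9, and 2 of the rises and the fall held whichever library was left out. One of the largest rises of named genes was that of c2 (GRMZM2G422750), the chalcone synthase that opens the pathway, with 15.9, 20.6 and 23.7 in NaCl and 0.39, 0.637 and 0.206 in CK (log2 fold change 3.90, SE 0.20, adjusted p = 6.02e-05). The regulator R-S (GRMZM5G822829), also named r1 and active in anthocyanin control, was listed at 0 in all 3 NaCl libraries and at 2.47, 1.502 and 1.01 in CK libraries. Of 7 genes of phenylpropanoids and lignin 1 rose and 1 fell. Phenylalanine ammonia-lyase pal3 (GRMZM2G074604), which feeds both flavonoids and lignin, had 324, 277 and 277 in NaCl and 82.7, 99.9 and 113 in CK (log2 fold change 1.57, SE 0.19, adjusted p = 0.00132). The fall was in cad1 (GRMZM2G046070), a cinnamyl alcohol dehydrogenase gene by its name, with 2.21, 3.17 and 2.45 in NaCl and 8.28, 5.61 and 4.90 in CK (log2 fold change -0.99, SE 0.21, adjusted p = 0.0153). Terpene genes gave 3 rises and 5 falls among 16, of which 3 rises and 2 falls held whichever library was left out. CPPS2 (GRMZM2G044481), the copalyl diphosphate synthase also known as an2, had 93.4, 57.9 and 69.4 in NaCl and 15.2, 10.9 and 7.62 in CK, and KSL4 (GRMZM2G016922), a kaurene synthase-like gene, had 15.2, 10.3 and 11.9 in NaCl and 2.97, 2.61 and 1.99 in CK. The log2 fold changes were 2.63 (SE 0.26, adjusted p = 0.000513) and 1.93 (SE 0.19, adjusted p = 0.000541). The sesquiterpene synthase EDS (GRMZM2G010356) was nearly absent in salt, with 0.015, 0.179 and 0 in NaCl against 17.4, 15.4 and 25.5 in CK (log2 fold change -4.24, SE 0.21, adjusted p = 4.89e-05).

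Among the transcription factors that pattern the shoot and leaf, homeobox and YABBY genes gave 12 falls and 1 rise of 39 and a median log2 fold change of -0.47, with 7 falls that held whichever library was left out. Of the genes that fell, yab14 (GRMZM2G005353), YAB5 and YAB6 (GRMZM2G074124) passed the filter only through CK. The call of yab14 was lost without CK replicate 2 (adjusted p = 0.0532). YAB5 (GRMZM2G116646) had 0.555, 0.801 and 0.969 in NaCl libraries and 4.39, 5.13 and 3.13 in CK libraries (log2 fold change -1.54, SE 0.20, adjusted p = 0.00168). The bHLH family gave 9 falls and no rise of 36, 5 of the falls whichever library was left out, with bHLH173 (GRMZM5G882527) at 0.26, 0.659 and 0.828 in NaCl and 6.66, 4.93 and 4.50 in CK. MYB genes went both ways, with 4 rises and 6 falls of 32, and 4 of the falls but none of the rises held whichever library was left out. Among the falls, MYBR41 (GRMZM2G150260) was listed at 0 in all 3 NaCl libraries against 2.62, 2.99 and 4.79 in CK libraries. NAC genes gave 3 rises and 1 fall of 17, of which 1 rise held likewise, and NAC78 (GRMZM2G406204) had 6.71, 5.12 and 5.86 in NaCl and 2.03, 2.01 and 1.70 in CK. WRKY genes gave 4 rises and no fall of 14, none of which held whichever library was left out, and bZIP genes gave 3 rises and 2 falls of 32, likewise. None of 8 MADS genes was called.

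Other lists had few calls. Among 15 nitrogen assimilation genes 3 fell and none rose, and 1 fall held whichever library was left out. One of them, the glutamine synthetase gene gln1 (GRMZM2G098290), had 0.466, 0.75 and 0.665 in NaCl and 2.58, 2.53 and 2.67 in CK (log2 fold change -1.15, SE 0.15, adjusted p = 0.00207). Another ID of the same name, GRMZM5G885867, did not pass (adjusted p = 0.363). Of 21 genes of protein folding in the endoplasmic reticulum 1 rose, and of 12 autophagy genes 1 fell, both under the share over all genes. Neither call was made without CK replicate 1 or 2. Calcium sensors and kinases gave 2 rises and 1 fall among 20, of which 1 rise held. Of 7 dehydrins and related late embryogenesis genes 1 fell, with overlap between the groups, and none rose. The median log2 fold change of this list was 0.46, and 0.19 without CK replicate 3. Of its members 2 lay above CK with no overlap and none below, against 4975 of all 21657 tested genes above. Of the 31 storage protein and oleosin genes in the table only 6 passed the filter, of which 2 rose. Neither of the last 2 rises, nor the dehydrin's fall, held whichever library was left out.

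The seed markers looked for were present in part. In all 6 libraries the zein genes z1C2 and gz27 of the endosperm were under 1 FPKM and the regulator o2 (GRMZM2G015534) was listed at 0. The endosperm starch genes sh2 (GRMZM2G429899) and bt2 (GRMZM2G068506) were low, with 0.878, 1.10 and 1.14 in NaCl and 1.22, 0.962 and 0.701 in CK for sh2. Of the leaf genes, rbcS (GRMZM2G113033) and rbcs1 (GRMZM2G098520), of the small subunit of Rubisco, reached at most 0.523 in NaCl and 1.19 in CK. The gene pdk1 (GRMZM2G306345), of pyruvate phosphate dikinase, which leaves share with other tissues, had 438, 534 and 559.7 in NaCl and 687, 1144 and 790.0 in CK (adjusted p = 0.102). Of the embryo genes, glb2 (GRMZM2G026703) was under 1 FPKM in all 6 libraries, and others were measured in both groups. The oleosin ole1 (GRMZM2G337229), of the oil body coat, had 10.5, 13.2 and 17.9 in NaCl and 7.33, 7.32 and 6.76 in CK, and the dehydrin dhn1 (GRMZM2G079440), also known as rab17, had 47.6, 36.4 and 56.8 in NaCl and 33.5, 29.0 and 23.4 in CK. Both were higher in every NaCl library than in every CK library, at an adjusted p of 0.0216 for ole1, which became 0.0656 to 0.0739 without a CK library, and 0.0517 for dhn1. The homeobox gene kn1 (GRMZM2G017087), of the shoot meristem, had a lower mean in NaCl, with 2.47, 3.84 and 1.39 in NaCl and 3.81, 3.25 and 3.64 in CK, with overlap (adjusted p = 0.287). Of the aleurone genes, c1 (GRMZM2G005066), a regulator of anthocyanin, rose to 1.05, 2.52 and 3.38 in NaCl against 0.396, 0.109 and 0.495 in CK, with its call lost without CK replicate 1 or 2. The aleurone marker A1 (GRMZM2G026930) was below the filter, listed at 0 in all 3 NaCl libraries and at 0.131, 0.329 and 0.307 in CK. The amylase amy5 fell, as did the endosperm gene mn1, both given above. The root genes rtcs (GRMZM2G092542), at 8.49, 7.71 and 5.17 in NaCl and 6.77, 6.43 and 7.97 in CK, and rth3 (GRMZM2G377215), at 6.34, 5.04 and 4.73 in NaCl and 5.34, 4.55 and 6.29 in CK, overlapped between the groups. No list therefore fixes which seed parts the libraries held, and the share of each tissue in a library was not tested.

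Most of the genes that changed have no name in the reference. The 2 unnamed genes with the largest rises were GRMZM2G014705, at 219, 29.1 and 33.3 in NaCl and 0.122, 0.134 and 0.127 in CK, and GRMZM2G075459, at 63.6, 120 and 73.2 in NaCl and 0.725, 0.665 and 0.378 in CK. Their log2 fold changes were 5.76 (SE 0.66) and 5.72 (SE 0.24). The 2 with the largest falls were GRMZM2G016836, at 0.19, 1.94 and 0.165 in NaCl and 66.7, 68.9 and 110 in CK, and GRMZM2G496319, at 0.121, 0.843 and 0.262 in NaCl and 64.9, 48.0 and 54.4 in CK. Genes under 0.5 FPKM in all 3 NaCl libraries and at 5 or more in all 3 CK libraries numbered 36, 7 of them named, and genes with the reverse pattern numbered 7, none of them named. The named ones were EDS, glu2, cyc1, cyc3, lox10, the kinesin kin2 (GRMZM2G136838) and LOL3 (GRMZM2G125314), of which the last pair of names also belong to other IDs.

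The NaCl libraries differed among themselves more than the CK libraries did, most of all in the pairs that hold NaCl replicate 1. The median SD on the log2 scale was 0.24 over the NaCl libraries and 0.18 over the CK libraries, and it was larger in NaCl for 65.6% of genes. The highest and lowest NaCl library differed by over 1 in 2530 genes (11.7%), and the highest and lowest CK library in 651 (3.01%). NaCl replicates 1 and 2 differed by over 1 in 1479 genes, replicates 1 and 3 in 1764 and replicates 2 and 3 in 557. For CK the same counts were 203 for replicates 1 and 2, 451 for replicates 1 and 3, and 177 for replicates 2 and 3. The median distance was 0.31, 0.33 and 0.23 over these pairs in NaCl and 0.22, 0.25 and 0.17 in CK, so the distance between NaCl replicates 2 and 3 lay within the range of the CK pairs by this median, though not by the count. Without NaCl replicate 1 the SD was larger in NaCl for 45.6% of genes, but this sets an SD of 2 libraries against one of 3, so it cannot be read as an equal or smaller spread.

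**Figure D4:**
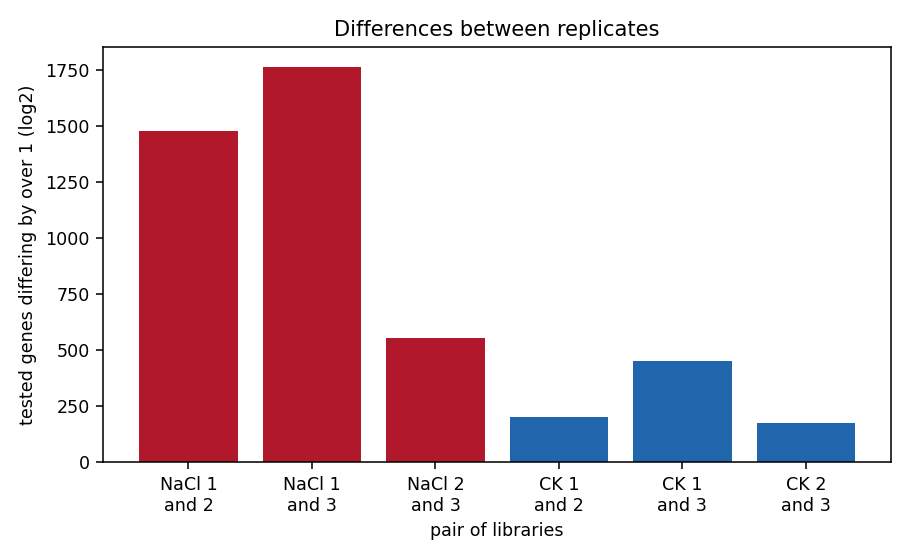
Number of tested genes that differ by over 1 on the log2(FPKM + 1) scale between each pair of libraries within NaCl (red, left) and within CK (blue, right). The 2 pairs with NaCl replicate 1 reach 1479 and 1764 genes, and the pair without it 557.

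NaCl replicate 1 lay farther from CK than the other salt libraries did in both directions. For genes that rose, the median distance from the CK mean was 1.14, 0.87 and 0.98 in NaCl replicates 1 to 3, and for genes that fell it was -1.33, -0.97 and -1.15. It was the highest of the 3 NaCl libraries in 1246 of the 2183 genes that rose and the lowest in 1131 of the 1940 that fell. A library was counted as lying apart where it differed by over 1 from the nearer of the other 2 and these were within 0.5 of each other. By this measure NaCl replicate 1 lay above in 372 genes and below in 298, NaCl replicate 2 above in 62 and below in 8, and NaCl replicate 3 above in 40 and below in 115. For NaCl replicate 3 this moves with its depth of 0.538, whose part was not tested. The depth of NaCl replicate 1 lay between those of the CK libraries, and its 20 highest genes held 11.5% of the FPKM sum, against 7.01 and 6.71% in NaCl replicates 2 and 3 and 7.16 to 9.08% in CK libraries. Leaving NaCl replicate 1 out left 4040 genes called, 3505 of them called in the same direction with it.

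**Figure D5:**
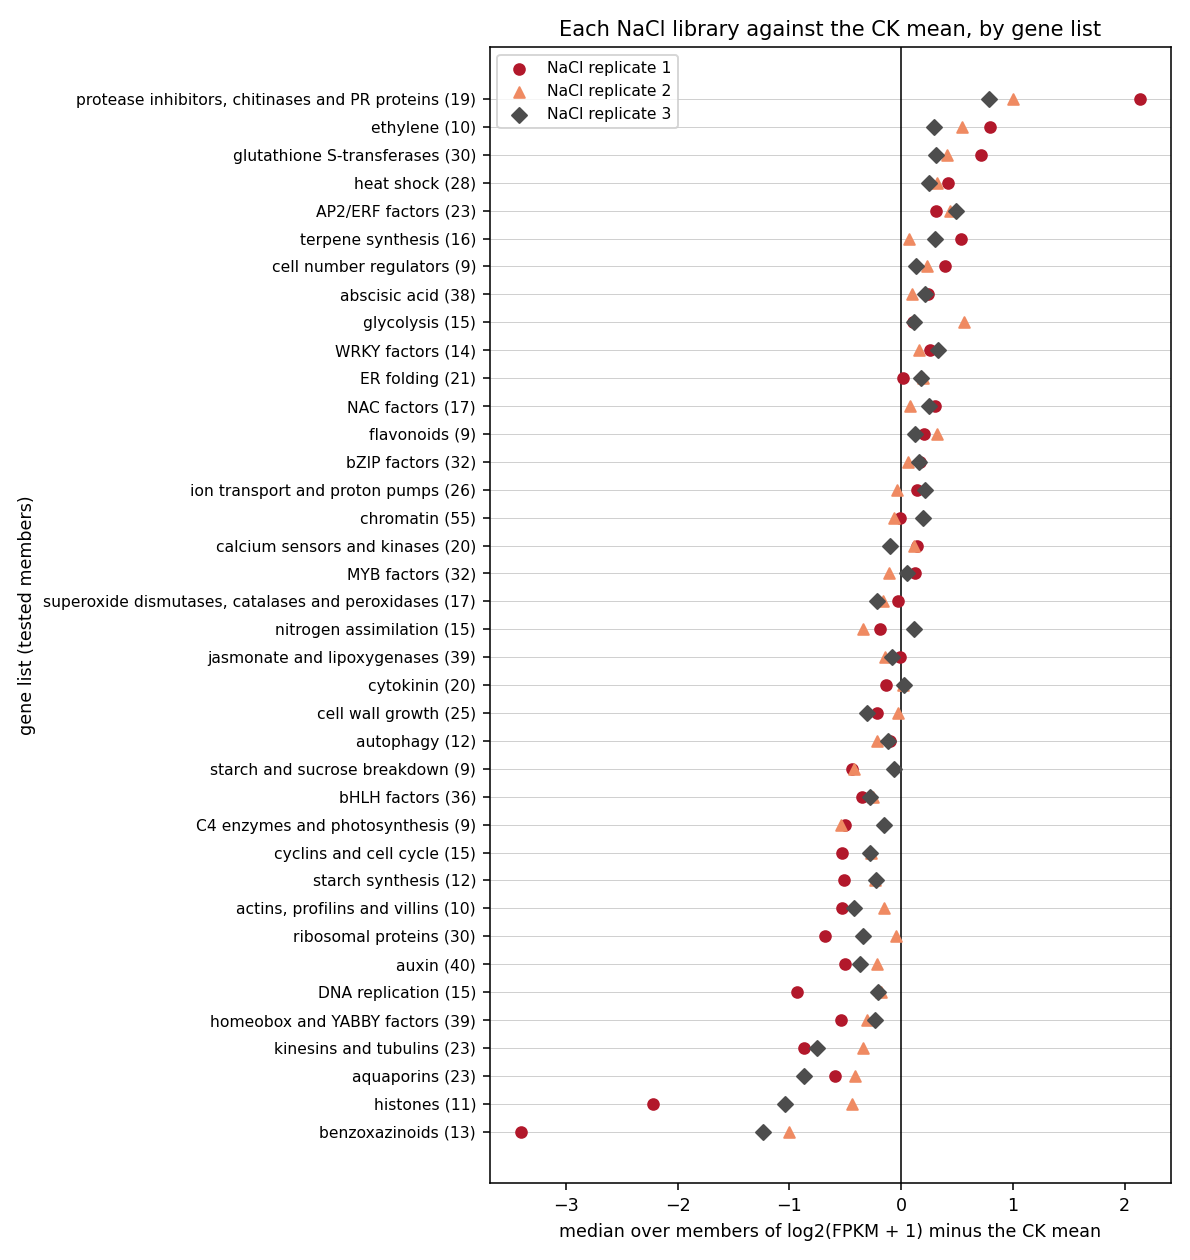
Median over the tested members of each gene list of log2(FPKM + 1) in a NaCl library minus the CK mean, for NaCl replicate 1 (circles), replicate 2 (triangles) and replicate 3 (diamonds), with lists ordered by their median log2 fold change and the line at 0 marking the CK mean. For benzoxazinoids NaCl replicate 1 is at -3.41 against -1.01 and -1.23 in the other 2, and for histones at -2.22 against -0.44 and -1.04.

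The distance of NaCl replicate 1 was uneven between lists. It was widest for benzoxazinoid genes, which make the indole-derived defence compounds of young maize. Their median shift from the CK mean was -3.41, -1.01 and -1.23 in NaCl replicates 1 to 3. The first gene of the pathway, bx1 (GRMZM2G085381), had 0.211, 195 and 339 in NaCl and 2832, 5971 and 4664 in CK. It was thus among the highest genes of CK libraries and close to 0 in NaCl replicate 1 alone (log2 fold change -6.63, SE 1.82, adjusted p = 0.0377). Without NaCl replicate 1 the log2 fold change was -4.05 (adjusted p = 0.00029), and without CK replicate 1, 2 or 3 the call was lost (adjusted p = 0.104, 0.0935 and 0.0957). The next gene, bx2 (GRMZM2G085661), had 2.85, 189 and 213 in NaCl and 547, 930 and 850 in CK, which did not pass (adjusted p = 0.0829). In all, 3 of 13 benzoxazinoid genes fell with every library in, against 7 without NaCl replicate 1. Of the 13, 8 lay below CK with no overlap and 2 above. Over all 21657 tested genes 3862 lay below and 4975 above. One that was near 0 in all 3 NaCl libraries was glu2 (GRMZM2G008247), a beta-glucosidase that releases the stored compounds, with 0.1, 0.04 and 0.433 in NaCl against 12.9, 10.6 and 8.75 in CK (log2 fold change -3.30, SE 0.20, adjusted p = 9.67e-05). It passed the filter only through CK. The indole-forming genes Igl and igl1, related to bx1, did not pass the test (adjusted p = 0.897 and 0.659). BX14 (GRMZM2G127418), a methyltransferase at the end of the pathway, was at 281, 46.2 and 34.6 in NaCl and 15.5, 19.8 and 16.2 in CK, above CK in all 3 libraries but not past the threshold (adjusted p = 0.0598).

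Other lists with a wide NaCl range were histones, whose median shift was -2.22, -0.44 and -1.04 in NaCl replicates 1 to 3, and DNA replication genes, at -0.93, -0.18 and -0.21. Ribosomal protein genes were at -0.69, -0.05 and -0.34, with NaCl replicate 1 farthest from CK in 25 of 30. Protease inhibitors, chitinases and PR proteins were at 2.14, 1.00 and 0.79. In some lists the medians of the 3 libraries lay close together. Among these were autophagy (-0.10, -0.22 and -0.11), bHLH factors (-0.35, -0.25 and -0.28) and heat shock (0.42, 0.32 and 0.25). Single members could still differ, as the median SD over NaCl libraries was 0.10, 0.24 and 0.32 in these lists. Over all tested genes it was 0.24. Kinesins and tubulins were at -0.87, -0.34 and -0.75 and aquaporins at -0.59, -0.41 and -0.87, where NaCl replicate 2 was the nearest to CK.

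Single genes in which NaCl replicate 1 stood alone, and which were picked after the values were seen, were rip2, asn3 and lkrsdh1 on the high side. The ribosome-inactivating protein gene rip2 (GRMZM2G119705) had 115, 0.493 and 0.663 in NaCl and 4.57, 4.70 and 5.86 in CK, so that NaCl replicate 1 was above and the other NaCl libraries were below every CK library. Its fold change over the group was near 0 (log2 fold change 0.13, adjusted p = 0.96). The asparagine synthetase asn3 (GRMZM2G053669) was at 179.6, 5.99 and 6.36 in NaCl and 5.47, 3.17 and 2.66 in CK. The lysine breakdown gene lkrsdh1 (GRMZM2G181362) was at 11.6, 1.27 and 1.66 in NaCl and 3.12, 2.36 and 2.06 in CK. On the low side, catalase cat2 (GRMZM2G090568) was at 107, 512 and 651 in NaCl and 665, 921 and 883 in CK, and GRF9 (GRMZM2G124566), of the growth-regulating factors, at 2.34, 17.4 and 15.7 in NaCl and 12.8, 14.3 and 13.6 in CK. None of these 5 genes passed the test.

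Opposite to them stood genes that changed evenly in all 3 salt libraries. Among named genes with a change of at least 1, those with the smallest SD over NaCl libraries included lox10, hsp18c, acs7, mn1 and CSLD1, given above, and the alkaline alpha-galactosidase AGA1 (GRMZM2G340656). AGA1, of the breakdown of raffinose sugars, had 84.6, 87.8 and 87.7 in NaCl and 27.2, 47.0 and 41.1 in CK (log2 fold change 1.19, SE 0.21, adjusted p = 0.0066). Its SD on the log2 scale was 0.03 in NaCl and 0.40 in CK. A small SD is easier to reach for genes near 0, where log2(FPKM + 1) moves little, as in lox10, mn1 and CSLD1. R-S and MYBR41, also among those with the smallest SD, were listed at 0 in all 3 NaCl libraries.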

How the data were processed

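RNA was extracted from maize seeds at germination, and the authors deposited FPKM values per gene for each library. The submitters' processing notes name HISAT2, featureCounts, DESeq2 and the build B73 RefGen_v3, without versions or roles. Steps or filters beyond these are not given in the sources used here. The 3 NaCl and 3 CK libraries were grouped by their labels, and the 3 NaCl+MT libraries entered only 1 alternative fit, in which all 9 libraries share an estimate of the spread.

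From the deposited FPKM values, log2(FPKM + 1) was computed for genes at 1 or more in 3 or more of the 6 libraries and fitted with limma 3.58.1 in R 4.3.3 (empirical Bayes with a trend). The test was 2-sided, and p-values for the 21657 genes were adjusted together (Benjamini-Hochberg), with a threshold of 0.05. A fold change on this scale understates the change of low genes. Of the genes tested, 323 passed the filter only through NaCl and 492 only through CK. Genes below it numbered 17640. The fit was also run on data simulated with independent noise of equal spread in both groups. The real spread was wider in NaCl, so that run does not show how this spread affects the calls.

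Names come from the RefSeq gene table of Zm-B73-REFERENCE-NAM-5.0. Of 39301 IDs, 18908 matched and 2539 had a name, and no coordinates of that other build are given. Members and gene lists were chosen with earlier results of these data known, and the lists, patterns on gene names, received no test. The text names genes chosen for size of change, for list membership, for spread in NaCl, for expression in only 1 group, or as tissue markers. Other genes are named for contrast, as list members that did not pass the test, or as said in place.

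Depth relative to CK replicate 1 was read from the steps between low values of 11246 genes, and the absolute depth is unknown. Alternatives were the pseudocount, the filter, the scaling, the fit and omitted libraries. The planned search of promoters for motifs was not run, since no promoter sequences were at hand.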

Additional observations from a re-analysis of the deposited data

Results flagged for a closer look

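The 3 NaCl+MT libraries, which no comparison above uses, lie outside the data compared above. Of 7583 genes listed at 0 in all 3 NaCl and all 3 CK libraries, 13 were above 0 in every NaCl+MT library. The levels of these 13 ran from 0.017 to 0.413 FPKM, under the filter of 1. Whether this count differs from what such low values would give without an effect of treatment was not tested.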

How the results depend on the processing

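Of the 268 genes compared over the alternatives run, none called reversed its direction. Of these genes, 98 to 104 lost their call without a CK library, 36 to 57 without an NaCl library, 130 without NaCl replicates 1 and 3, 68 under the replicate block and 65 with no filter. Leaving out 1 library at a time left 2212 to 4040 genes called, with 1086 to 2110 higher and 1126 to 1930 lower, against 4123, 2183 and 1940 with all 6. With NaCl replicates 1 and 3 both left out, 2054 genes were called, 1041 higher and 1013 lower, and the single NaCl library was then assumed to vary like the CK libraries. A filter of FPKM at least 5, under which 14236 genes were tested, gave 2556 calls, 1452 higher and 1104 lower, with 707 lower by at least 1 on the log2 scale. Among changes of at least 1, the counts with 1 library left out ran from 797 to 1250 higher and 938 to 1356 lower. With 1 library left out, the median SD over NaCl libraries ran from 0.161 to 0.244 and the share of genes with the larger SD in NaCl from 45.6 to 76.3%, the low end of each without NaCl replicate 1. A pseudocount of 0.1 or 0.5 gave a median SD of 0.291 or 0.268. Of the calls, 53.0% were higher, against 45.8, 51.3 and 54.1% under median-ratio scaling, quantile normalisation and a constant sum, and the median of all genes stayed between -0.01 and 0.05. The medians of the lists kept their sign under these scalings except those of proteases, fermentation, calcium, jasmonate and MYB genes, which lay near 0. Deviations from the group mean correlated at -0.13, -0.37 and -0.22 between libraries of the same number. Between libraries of different numbers they correlated at 3.37e-05 to 0.253. The deviations within a group of 3 are linked through its own mean, so these values cannot show whether the numbers pair the libraries. The fit with the replicate number as a block gave 3187 calls. A fit that also held the NaCl+MT libraries gave 5649 calls. The motif search was not run.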
